A study of Mus musculus with 22 samples.

Results

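AMPA receptor transcripts in the CA1 region of the mouse hippocampus were followed as 10 genes chosen by name, out of 23361 genes in the expression matrix. They are the pore-forming subunits Gria1, Gria2, Gria3 and Gria4, the transmembrane AMPA receptor regulatory proteins (TARPs) Cacng2, Cacng3 and Cacng8, the cornichons Cnih2 and Cnih3, and Shisa9. The study compared ad libitum (AL) feeding with calorie restriction (CR) in wild-type female mice of a Swiss Webster by DBA/C57BL6 cross, and mRNA was sequenced from 1 CA1 library per mouse. The groups were AL at 5 months (n = 5), CR at 5 months (n = 5), AL at 15 months (n = 6) and CR at 15 months (n = 6). Diets were assigned at random in young adulthood, and CR mice received a daily allotment reduced in carbohydrates. The diets began at the same age in both age groups, so the CR mice at 15 months had been restricted for longer. Age and length of restriction thus cannot be told apart in CR mice, nor in the age by diet interaction. CA1 was dissected by hand under a microscope from brain slabs, so a library holds every cell type of the piece taken, and in such bulk tissue fewer cells of a type and less RNA per cell cannot be told apart.

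AMPA receptors carry most of the fast excitatory current at central synapses. Each receptor is a tetramer of GluA subunits, the products of the Gria genes, and the GluA2 subunit in its edited form makes the channel nearly impermeable to calcium. Auxiliary proteins join the tetramer, help to bring it to the surface and to the postsynaptic density, and slow or speed its gating. Pyramidal neurons of CA1 are known for receptors built of GluA1 and GluA2 with the TARP gamma-8 and cornichon proteins, and the number of such receptors at the synapse is what changes in long-term potentiation.

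The promoters of members on different sides of the results below are shown first, as the 250 bases before the transcription start. Cnih2 and Gria2 were lower at 15 months in AL mice, Gria4 was higher and Cnih3 was not called. The sequences come from RefSeq on GRCm38.p6, where 7 of the 10 members matched an entry, and are printed for the 4 whose start is also the start of the GENCODE gene. They lie at chr19:5098522-5098771 (minus strand) for Cnih2, chr3:80802836-80803085 (minus strand) for Gria2, chr9:4796235-4796484 (minus strand) for Gria4 and chr1:181352378-181352627 (plus strand) for Cnih3. Each reads 5′ to 3′, and capitals mark GGGCGG or its reverse complement CCGCCC, a motif bound by Sp1-type factors.
Cnih2: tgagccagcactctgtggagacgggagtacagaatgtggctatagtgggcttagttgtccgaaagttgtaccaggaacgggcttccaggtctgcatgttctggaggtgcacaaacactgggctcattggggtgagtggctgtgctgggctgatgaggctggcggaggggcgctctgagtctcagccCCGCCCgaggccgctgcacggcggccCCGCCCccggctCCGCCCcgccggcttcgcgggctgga
Gria2: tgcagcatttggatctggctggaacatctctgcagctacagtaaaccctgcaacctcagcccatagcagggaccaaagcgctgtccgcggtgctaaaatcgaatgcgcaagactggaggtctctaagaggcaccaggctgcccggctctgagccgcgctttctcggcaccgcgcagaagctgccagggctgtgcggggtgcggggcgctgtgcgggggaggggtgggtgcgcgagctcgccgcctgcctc
Gria4: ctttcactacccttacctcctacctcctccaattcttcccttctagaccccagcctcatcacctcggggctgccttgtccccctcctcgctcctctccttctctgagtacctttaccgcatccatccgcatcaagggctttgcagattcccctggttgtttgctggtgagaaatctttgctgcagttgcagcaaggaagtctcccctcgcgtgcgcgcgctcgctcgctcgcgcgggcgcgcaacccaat
Cnih3: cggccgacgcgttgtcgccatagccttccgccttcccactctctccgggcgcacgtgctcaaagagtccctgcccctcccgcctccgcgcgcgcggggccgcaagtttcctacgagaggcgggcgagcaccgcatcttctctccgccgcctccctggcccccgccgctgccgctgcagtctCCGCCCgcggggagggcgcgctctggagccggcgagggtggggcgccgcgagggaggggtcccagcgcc
The motif was found 3 times for Cnih2, 1 time for Cnih3 and 0 times for Gria2 and Gria4, and 32.7% of all 32851 promoter entries hold it in the same window on either strand. TGACG, the core of the element bound by CREB, was found in none of the 4 windows and in 17.8% of all entries. GC content was 65.6% for Cnih2, 64.8% for Gria2, 58.8% for Gria4 and 76.0% for Cnih3, against a median of 52.4% over all entries. The windows held 17, 19, 16 and 36 CG dinucleotides, respectively, where the median entry held 6. All 4 printed windows were thus above the median entry in GC and CG. The matched entries not printed, whose start is not the GENCODE gene start, varied more. Cacng8 had 48.0% GC and 0 CG dinucleotides, Cacng3 56.8% and 8, and Cacng2 62.0% and 16.

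Levels are FPKM, a read-pair density scaled to exon length and to the size of the library, as deposited by the authors. Scaling to length allows only an approximate comparison between genes, since estimates for similar subunits also depend on how reads were shared. A log2 fold change here is the fitted difference between group means of log2(FPKM + 0.1), given with its standard error (SE). It comes from 1 limma model of the 4 groups over 16978 genes, and a gene was called at a Benjamini-Hochberg adjusted p under 0.05 over all of them. All 10 members passed the filter on low values, a mean of at least 0.1 FPKM. Median FPKM per library lay between 2.51 and 3.1, and 18281 to 19175 genes were above 0. Read counts were not used, so the depth behind each value is unknown and precision rests on the spread between mice.

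The labelled region was checked against marker genes before the members were compared. The CA1 pyramidal neuron list was expressed in every library, but 3 of its 6 genes (Fibcd1, Pou3f1 and Gpr161) were lower in AL mice at 15 than at 5 months, and 5 of 9 genes of a neocortex and subiculum list (Tbr1, Lamp5, Rorb, Cux2 and Ctgf) were higher. The other genes of these lists were not called, and some ran the other way. Wfs1 of the CA1 list had a higher mean at 15 months (83.4 against 56.5 FPKM). Mpped1 (102.9 against 117.9) and Nov (73.8 against 77.1) were little changed. Of the neocortex and subiculum list, Fezf2 (18.4 against 22.9 FPKM) and Nts (5.6 against 6.8) had lower means. Fn1 (10.2 against 6.745) and Tshz2 (27.1 against 8.52) had higher ones. A region score, the mean log2 level of the neocortex and subiculum list minus that of the CA1 list, ran from -3.45 to -1.84 in AL and from -3.37 to -2.78 in CR mice at 5 months. At 15 months it ran from -1.30 to -0.28 in AL mice and from -3.13 to -0.70 in CR mice. The AL ages did not overlap in this score, and CR 15 months replicates 3 (-3.13) and 1 (-2.30) lay among the 5-month libraries. Summed CA1 list levels were 249 to 501 FPKM at 5 and 252 to 338 FPKM at 15 months in AL mice, and 284 to 442 and 123 to 471 FPKM in CR mice. Summed neocortex and subiculum levels were 76.6 to 121.9 FPKM at 5 and 124 to 220.3 FPKM at 15 months in AL mice, and 55.6 to 94.9 and 70.8 to 238 FPKM in CR mice. AL 15 months replicates 4 and 5 stood apart with the highest Lamp5 (78.0 and 94.5 FPKM) and Rorb (7.06 and 9.30 FPKM). CR 15 months replicate 4 had the lowest CA1 list sum of the 22 libraries (123.1 FPKM) and the highest CA3 pyramidal neuron list sum (117.8 FPKM, against 25.7 to 46.8 FPKM in the other CR mice and 36.4 to 53.5 FPKM in the AL mice of that age). At 5 months the CA3 list sums varied as widely, from 26.7 to 101.5 FPKM in AL and from 22.7 to 100.3 FPKM in CR mice. All 5 choroid plexus genes were lower at 15 months in both diets, with sums of 37.1 to 351 FPKM at 5 and 3.34 to 21.0 FPKM at 15 months in AL mice. Of the other lists, 1 of 4 CA3 pyramidal neuron, 1 of 4 dentate granule cell and 1 of 4 oligodendrocyte genes were lower, 2 of 4 thalamus genes were higher, 1 of 4 astrocyte genes was higher and 1 lower, and 0 of 4 microglia, 0 of 2 oligodendrocyte precursor, 0 of 3 endothelium and 0 of 7 interneuron genes were called by limma in this contrast (1 microglia and 1 interneuron gene at an unadjusted p under 0.05). In all, 20 of 56 marker genes (35.7%) were called for age in AL mice, where 20.6% of all 16978 genes tested were, so 1 gene called in a list of 4 is near the share over all genes. No gene of the CA1, neocortex or choroid plexus lists was at 0 in any library.

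At 5 months in AL mice the most abundant member was Cnih2 (352 FPKM on average), followed by Gria1 (209) and Gria2 (188), whose libraries overlapped. Cacng8 (83.0 FPKM), the TARP most typical of the hippocampus, and Gria3 (62.2 FPKM) came next, each separate from its neighbours in the order. Cnih3 (41.6 FPKM) and Cacng3 (41.3 FPKM) overlapped, Gria4 stood at 22.2 FPKM, and Cacng2 (14.4 FPKM) and Shisa9 (13.9 FPKM) overlapped at the bottom. The CR mice at 5 months had the same order down to Gria4, with Shisa9 (16.4 FPKM) above Cacng2 (13.3 FPKM) in an overlapping pair. At 15 months in AL mice the order was Cnih2 (147 FPKM), Gria2 (132), Gria1 (86.6), Cacng3 (72.7), Gria3 (61.9), Gria4 (40.9), Cnih3 (39.7), Cacng8 (37.4), Shisa9 (20.9) and Cacng2 (16.4), and every neighbouring pair overlapped except Cacng8 and Shisa9. The plot of the 10 genes by mouse shows these levels.

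**Figure D1:**
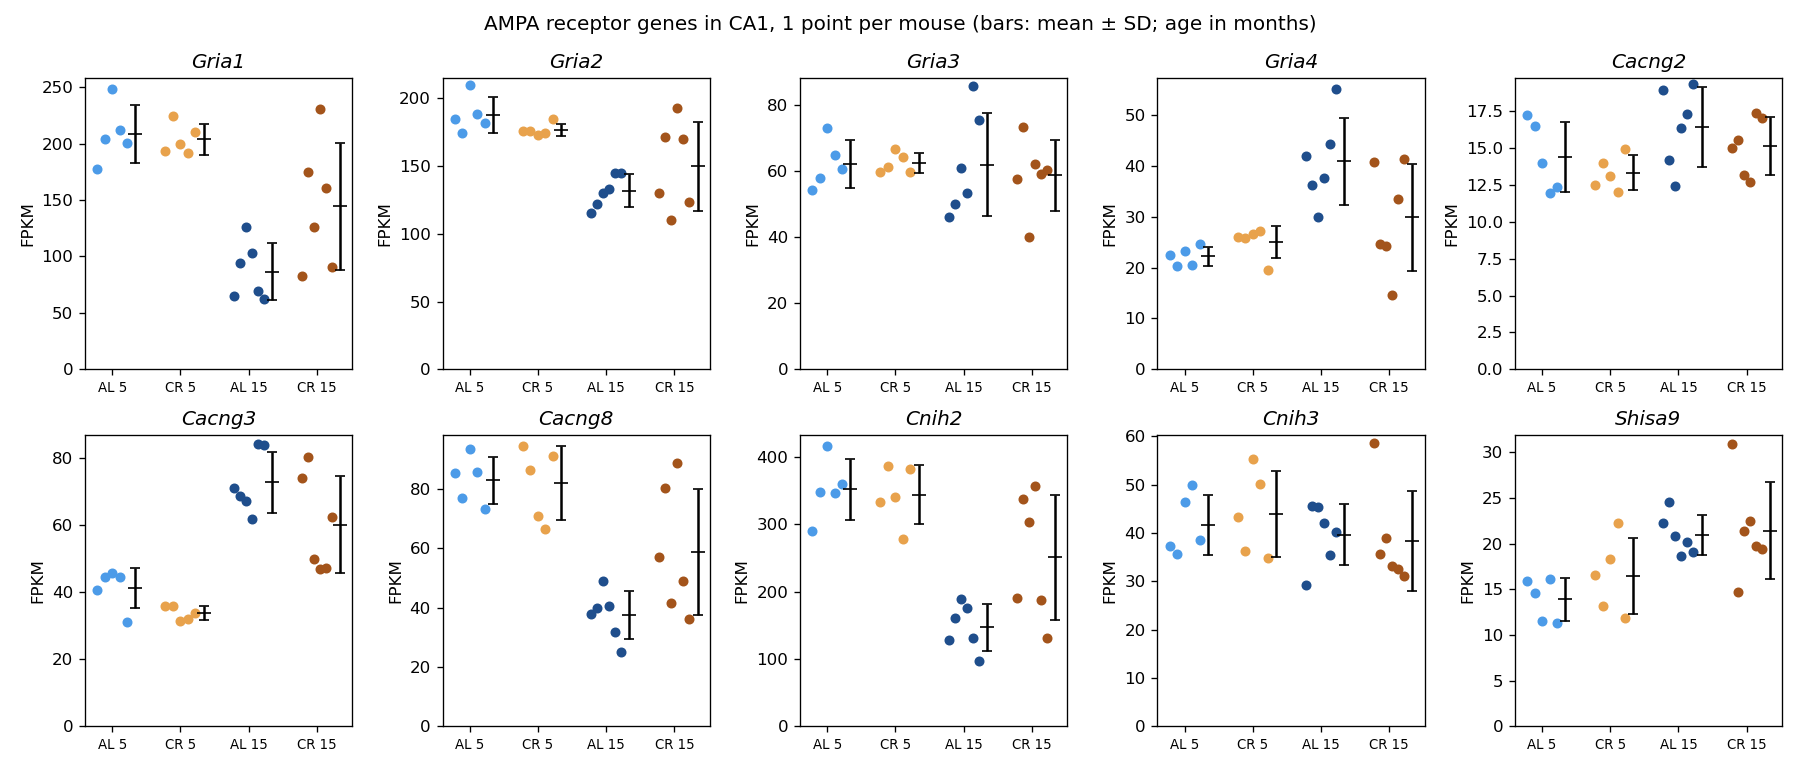
FPKM (vertical axes, each from 0) of the 10 genes in each mouse (points) for AL and CR groups at 5 and 15 months, with mean ± SD as bars. Gria1, Cacng8 and Cnih2 of AL mice at 15 months all lie below every 5-month AL mouse, Gria4 and Cacng3 all lie above, and the 15-month CR mice of Gria1 spread from 82.65 to 231 FPKM.

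In AL mice, 7 of the 10 genes differed between 15 and 5 months, against 20.6% of all genes tested. Gria1, Gria2, Cacng8 and Cnih2 fell and Gria4, Cacng3 and Shisa9 rose, against 9.97% of all genes lower and 10.7% higher. With libraries shifted to a common median these shares were 13.5% lower and 8.49% higher, and the same 4 members were still lower and the same 3 higher. In all 7 genes the 2 ages were free of overlap, as for 14.0% of all genes. The median log2 fold change was -0.05 over the members and -0.0018 over all genes tested.

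Among the pore-forming subunits, Gria1, on chromosome 11 from 57011387 to 57330244 (GRCm38, GENCODE annotation, as for all coordinates of genes here), encodes GluA1, the subunit most tied to activity-dependent insertion at CA1 synapses. AL mice at 5 months had 177.5, 204.5, 248, 212 and 201 FPKM. AL mice at 15 months had 62.65 at the lowest, 81.6 at the median and 126 at the highest. Every older mouse was thus below every younger one, and the mean fell from 209 ± 25.7 (SD, n = 5) to 86.6 ± 25.3 FPKM (SD, n = 6), a log2 fold change of -1.31 (SE 0.22, limma adjusted p = 0.000707). Gria2 (chromosome 3, 80681450 to 80802835) encodes GluA2, which sets calcium permeability. Its values at 5 months were 184.5, 174, 209.8, 189 and 182 FPKM, and at 15 months 115 at the lowest, 132 at the median and 145 at the highest. The ages did not overlap, with a log2 fold change of -0.51 (SE 0.11, limma adjusted p = 0.00377). Gria3 (chromosome X, 41400854 to 41678601), which encodes GluA3, was at 62.2 ± 7.23 FPKM (SD, n = 5) and 61.9 ± 15.6 FPKM (SD, n = 6), with a log2 fold change of -0.03, a 95% interval of -0.34 to 0.27 and a limma adjusted p of 0.892. Its older AL mice spread from 46.1 to 85.7 FPKM, with the 2 highest values in replicates 4 (85.7) and 5 (75.4). Gria4 (chromosome 9, 4417896 to 4796234) encodes GluA4, known for fast gating and for its use by interneurons. It had 22.55, 20.3, 23.2, 20.6 and 24.6 FPKM at 5 months and 29.9 at the lowest, 39.8 at the median and 55.2 at the highest at 15 months. All 6 older mice exceeded all younger ones, with a log2 fold change of 0.85 (SE 0.20, limma adjusted p = 0.00642). Beside this, 0 of 7 interneuron markers were called in the same limma contrast (1 at an unadjusted p under 0.05), and their summed level was 516 to 827 FPKM at 5 and 590 to 813 FPKM at 15 months. Sst was the largest part of that sum (means of 344 and 318 FPKM), so it says little of other interneuron types. The part of interneurons in the Gria4 difference was not tested.

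Of the TARPs, Cacng8 fell and Cacng3 rose. Cacng8 (chromosome 7, 3390683 to 3415648) encodes gamma-8, the hippocampus-enriched TARP that holds AMPA receptors outside and inside the synapse. Its level was 85.4, 77.1, 93.4, 85.7 and 73.3 FPKM at 5 months and 25.2 at the lowest, 39.0 at the median and 48.9 at the highest at 15 months. There was no overlap, with a log2 fold change of -1.17 (SE 0.20, limma adjusted p = 0.000724). Cacng3 (chromosome 7, 122670492 to 122769393) encodes gamma-3, a TARP abundant in the cerebral cortex. It had 40.7, 44.5, 45.5, 44.5 and 31.2 FPKM at 5 months and 61.9 at the lowest, 69.7 at the median and 84.0 at the highest at 15 months. All older mice were above all younger ones, with a log2 fold change of 0.82 (SE 0.14, limma adjusted p = 0.00065). Cacng2 (chromosome 15, 77991748 to 78120028) encodes stargazin, the TARP missing in the stargazer mouse, and its exons overlap A730060N03Rik on the opposite strand, whose reads a kit without strand marks cannot separate. It ranged from 11.9 to 17.2 FPKM at 5 and from 12.4 to 19.3 FPKM at 15 months, and the difference of 0.19 on the log2 scale had a 95% interval of -0.07 to 0.44 and a limma adjusted p of 0.283.

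Of the cornichons, which aid export of the receptor from the endoplasmic reticulum and slow its closing, Cnih2 (chromosome 19, 5092868 to 5098521) was the member with the second largest decrease. Its values were 290.1, 347, 416, 346 and 359 FPKM at 5 months and 96.5 at the lowest, 146 at the median and 189.8 at the highest at 15 months. The ages were fully separate, with a log2 fold change of -1.28 (SE 0.22, limma adjusted p = 0.000757). An exon of Cnih2 overlaps Yif1a on the opposite strand and the library kit does not mark strand, so reads of the pair cannot be told apart there. Yif1a averaged 8.53 FPKM at 5 and 9.34 FPKM at 15 months in AL mice, values that rest on the same unseparated reads. The part of Yif1a reads in the Cnih2 values was not tested. Cnih3 (chromosome 1, 181352628 to 181460641) ranged from 35.8 to 50.05 FPKM at 5 and from 29.2 to 45.6 FPKM at 15 months. Its log2 fold change of -0.07 had a 95% interval of -0.41 to 0.26 (limma adjusted p = 0.779). Shisa9 (chromosome 16, 11984113 to 12270902) encodes CKAMP44, an auxiliary subunit best known from dentate granule cells, where it slows recovery from desensitization. Its level was 15.9, 14.6, 11.6, 16.15 and 11.3 FPKM at 5 months and 18.6 at the lowest, 20.5 at the median and 24.6 at the highest at 15 months. It rose without overlap, by a log2 fold change of 0.60 (SE 0.17, limma adjusted p = 0.0155). The 4 dentate granule cell markers summed to 17.2 to 51.3 FPKM at 5 and 12.4 to 41.65 FPKM at 15 months, and 1 of them (Dsp) was called lower. The part of dentate granule cells in the Shisa9 difference was not tested.

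**Figure D2:**
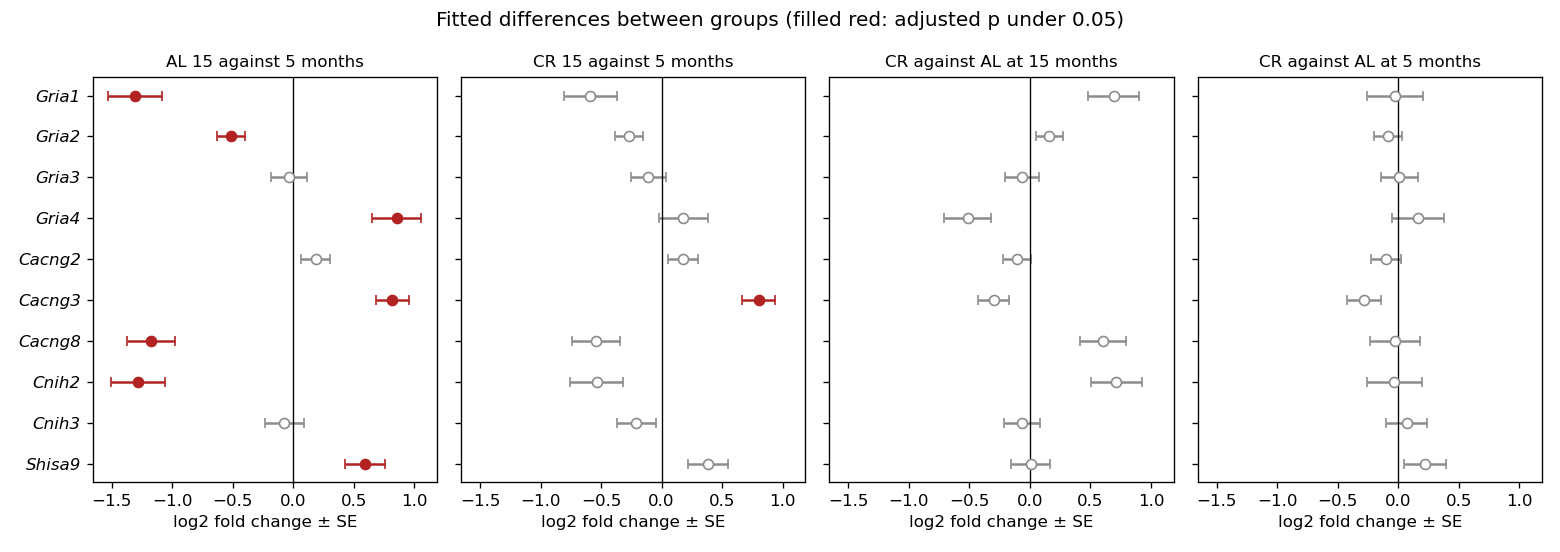
Log2 fold change ± SE (horizontal axes) of the 10 genes in 4 contrasts of the limma fit, with filled red points for an adjusted p under 0.05. In AL mice 7 genes are called with age and in CR mice only Cacng3, and neither diet contrast has a called member.

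The fold changes of AL mice with age moved with the region score. With that score added to the limma model as a covariate, 0 of the 10 members (and 0 of all 16978 genes, with 2208 at an unadjusted p under 0.05) were called for age in AL mice. Gria1 was then at -0.39 (SE 0.22, limma adjusted p = 0.469), Cnih2 at -0.33 (SE 0.20, 0.508), Cacng8 at -0.42 (SE 0.22, 0.441) and Gria4 at 0.02 (SE 0.21, 0.973). The estimate of Cacng3 moved least among the called members, to 0.69 (SE 0.21, limma adjusted p = 0.186). With the level of the CA1 list as the covariate instead, 5 members were called, namely Gria1 (-1.04), Gria2 (-0.51), Cacng3 (0.85), Cacng8 (-0.87) and Cnih2 (-0.90), whereas Gria4 (0.62, limma adjusted p = 0.102) and Shisa9 (0.50, limma adjusted p = 0.117) were not. Leaving out AL 15 months replicates 4 and 5 left all 7 called. Since the score separated the ages in AL mice completely, age and the region score cannot be told apart in that diet, and the part of the dissected region in the differences was not tested further.

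**Figure D3:**
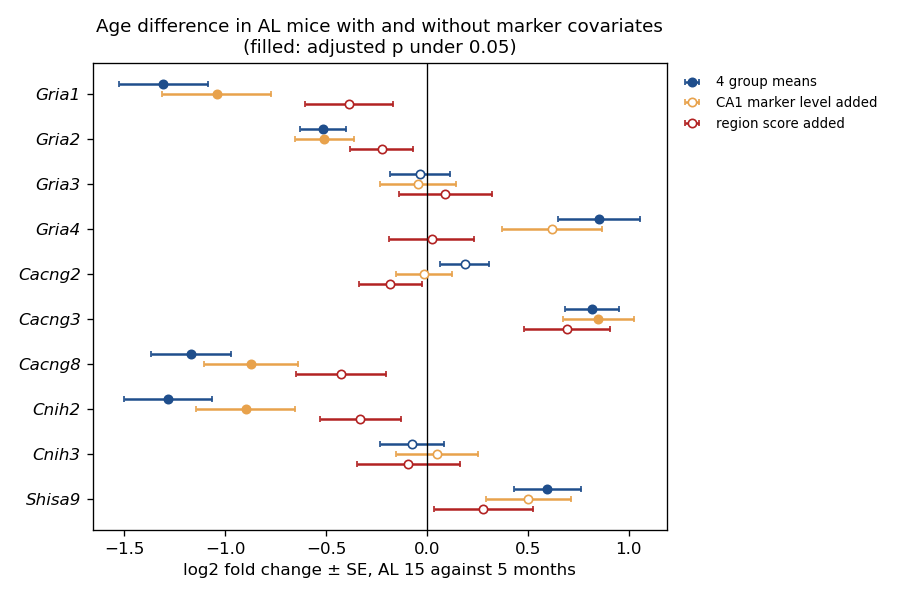
Log2 fold change ± SE for AL mice at 15 against 5 months in the limma fit of the 4 groups (blue) and with the CA1 marker level (orange) or the region score (red) as a covariate, filled where the adjusted p was under 0.05. The fold change of Gria1 moves from -1.31 to -0.39 with the region score and that of Cacng3 from 0.82 to 0.69.

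In CR mice, Cacng3 alone of the 10 genes was called between 15 and 5 months, where 3.36% of all genes were called and 1.10% were higher. Its values at 5 months were 35.8, 35.8, 31.3, 31.8 and 33.7 FPKM. At 15 months they were 46.9 at the lowest, 56.1 at the median and 80.3 at the highest. The ages did not overlap, as for 3.26% of genes in this contrast, and the log2 fold change of 0.80 (SE 0.14, limma adjusted p = 0.00177) was close to that in AL mice. The difference between those 2 fold changes, the age by diet interaction, was -0.02 with a 95% interval of -0.42 to 0.38 (limma adjusted p = 0.987). With the region score as a covariate Cacng3 was at 0.70 in CR mice (limma adjusted p = 0.107), and 0 members were called. The other 9 genes were not called in CR mice, and 6 members in all had an unadjusted p under 0.05. Gria1 of CR mice had 193, 224, 200.0, 192 and 210.5 FPKM at 5 months and 82.65 at the lowest, 143.5 at the median and 231 at the highest at 15 months. Its older CR mice ranged from the AL values at 15 months to above every CR mouse at 5 months, and the log2 fold change was -0.59 with a 95% interval of -1.05 to -0.13 (limma adjusted p = 0.154). Cacng8 was at -0.54 (limma adjusted p = 0.148) and Cnih2 at -0.54 (0.192) on the same scale. Without CR 15 months replicate 3, Gria1 (-0.74) and Cacng8 (-0.67) were called as well, and 3 members passed in all.

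Between diets at 15 months, limma called 0 of the 10 genes, with 5 at an unadjusted p under 0.05, and it called 0.742% of all genes. Gria1, Cnih2 and Cacng8 had higher means in CR mice and Gria4 and Cacng3 lower means, and all 10 genes overlapped between the diets, where 0.984% of all genes did not. Cnih2 had 96.5 at the lowest, 146 at the median and 189.8 at the highest FPKM in AL mice and 132 at the lowest, 247 at the median and 356 at the highest in CR mice. In 4 of 6 CR mice it was above every AL mouse, and the log2 fold change of 0.71 had a 95% interval of 0.28 to 1.15 and a limma adjusted p of 0.102. Gria1 was likewise above every AL mouse in 4 of 6 CR mice, with a log2 fold change of 0.69, an interval of 0.25 to 1.13 and a limma adjusted p of 0.115. Cacng8 was also above all AL values in 4 of 6 CR mice, at 0.60 with an interval of 0.21 to 0.999 (limma adjusted p = 0.123). Each of these counts includes a CR mouse barely above the AL maximum. These were replicate 0 in Cnih2 (190.5 against 189.8 FPKM), replicate 2 in Gria1 (126.2 against 125.9) and replicate 4 in Cacng8 (49.13 against 48.94). Gria4 ran the other way at -0.51, with an interval of -0.92 to -0.11 (limma adjusted p = 0.190), and 3 of 6 CR mice were below every AL mouse. Cacng3 stood at -0.30, with an interval of -0.57 to -0.03 (limma adjusted p = 0.245). Gria2 (0.16), Gria3 (-0.06), Cacng2 (-0.11), Cnih3 (-0.07) and Shisa9 (0.01) had intervals that include 0. Single libraries decided these calls: without CR 15 months replicate 5, Gria1 (0.81), Cnih2 (0.88) and Cacng8 (0.73) were called, and without CR 15 months replicate 0 only Gria1 (0.83) was.

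The CR mice at 15 months differed among themselves in the same genes and in the region score. Replicate 3, with the lowest score (-3.13), had the highest Gria1 (231 FPKM), Cnih2 (356 FPKM) and Cacng8 (88.7 FPKM) and the lowest Gria4 (14.6 FPKM) of its group. Replicate 1, with a score of -2.30, had the next highest Gria1 (174.8 FPKM), Cnih2 (337 FPKM) and Cacng8 (80.25 FPKM). Both lay within the range of the 5-month mice in these genes, except for Gria1 of replicate 1 (5-month minimum 177.5 FPKM) and Gria4 of replicate 3 (5-month minimum 19.5 FPKM), which were lower. Replicate 2, with a score of -1.42, had Gria1 at 126.2, Cnih2 at 303.5, Cacng8 at 41.7 and Gria4 at 24.3 FPKM. It was thus far above the AL mice of its age in Cnih2, inside their range in Cacng8 and below it in Gria4. Replicates 0 and 5, with scores of -0.75 and -0.70, had Gria1 at 82.65 and 90.4 FPKM and Gria4 at 40.8 and 41.4 FPKM, inside the range of AL mice of the same age. Cnih2 was at 190.5 and 131.8 FPKM and Cacng8 at 57.1 and 36.1 FPKM in these mice, so replicate 0 was above every 15-month AL mouse in Cacng8 (maximum 48.9 FPKM) and marginally in Cnih2 (maximum 189.8 FPKM), while replicate 5 was inside the AL range in both. Replicate 4 had a score of -0.70 as well, but Gria1 at 160.8 FPKM, above every AL mouse at 15 months, with Cnih2 at 187.2, Cacng8 at 49.1 and Gria4 at 33.5 FPKM. Members thus did not follow the score in every mouse of this group. Dentate granule cell list levels (mean log2) were 4.15, 4.64 and 3.39 in replicates 2, 3 and 4, above the 0.50 to 2.86 of AL mice at 15 months. Without replicate 4, limma still called 0 members between diets at 15 months and 1 member for age in CR mice. With the region score as a covariate, the diet difference at 15 months was 0.35 for Gria1 (limma adjusted p = 0.415), 0.36 for Cnih2 (0.351), 0.33 for Cacng8 (0.458) and -0.20 for Gria4 (0.647), and the part of the region in the diet difference was not tested further.

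**Figure D4:**
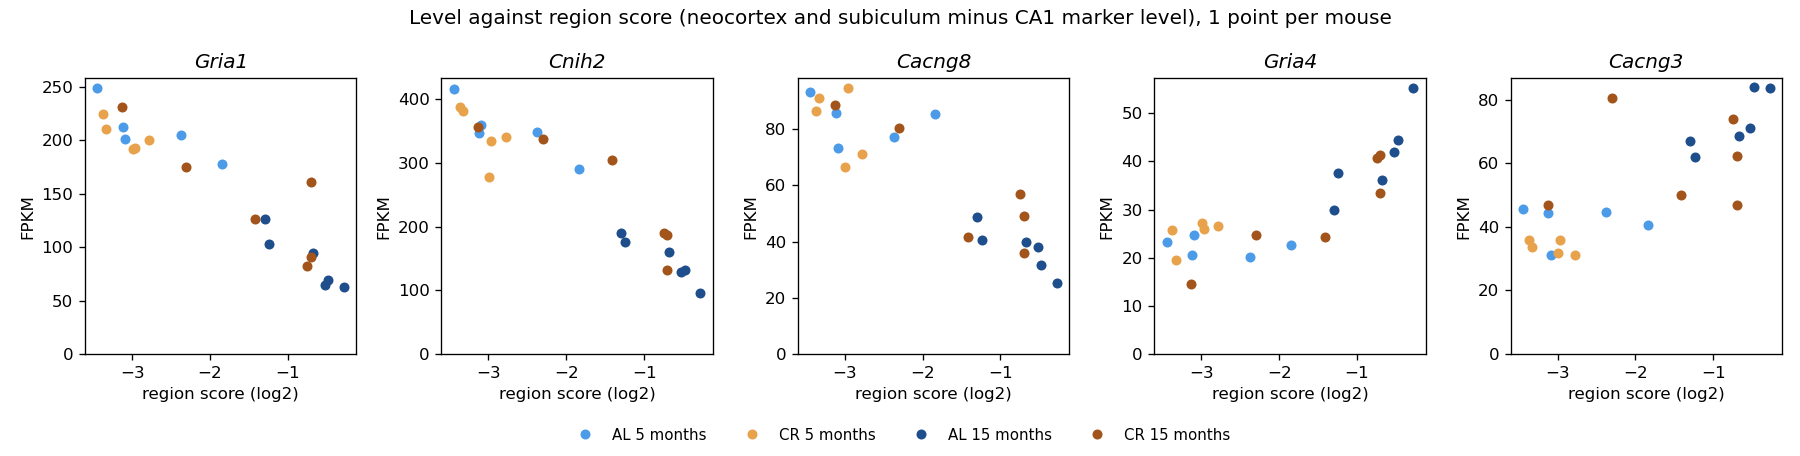
FPKM (vertical axes, from 0) of 5 members against the region score (horizontal axes, log2 units) with 1 point per mouse, coloured by group. CR 15 months replicates 3 (-3.13) and 1 (-2.30) have the highest Gria1, Cnih2 and Cacng8 of their group, and replicate 1 is just below every 5-month mouse in Gria1 (174.8 against at least 177.5 FPKM).

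At 5 months the diets did not differ detectably in any member. The limma fit called 0 of the 10 genes and 0% of all genes, and 0 members but 789 genes in all had an unadjusted p under 0.05. CR mice had Gria1 at 204 ± 13.6, Gria2 at 177 ± 4.48 and Gria4 at 25.0 ± 3.15 FPKM (SD, n = 5 each), and all members overlapped between diets, where 1.36% of all genes did not. The log2 difference furthest from 0 was that of Cacng3, -0.28 with a 95% interval of -0.58 to 0.01, where the interval of Gria1 was -0.51 to 0.45. The age by diet interaction likewise had 0 members called by limma, with 4 at an unadjusted p under 0.05, and 0% of all genes with 1301 at that p. It was 0.75 for Cnih2 (95% interval 0.10 to 1.39, limma adjusted p = 0.636) and 0.72 for Gria1 (0.07 to 1.37, limma adjusted p = 0.639), so a smaller age difference of these genes in CR mice was not shown.

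The make-up of the subunit pool was described by each gene's share of the summed Gria1 to Gria4 FPKM, with no test. Gria1 held 43.3% ± 1.78 (SD, n = 5) in the 5-month AL group and 43.5% ± 1.67 (SD, n = 5) in the CR group of that age. At 15 months it held 26.95% ± 7.08 (SD, n = 6) in AL mice, from 18.5% to 36.3%, and in CR mice 36.8% ± 7.66 (SD, n = 6), from 26.6% to 46.1%. The share of Gria2 varied little, with means of 39.15%, 37.8%, 41.1% and 39.2% in AL and CR mice at 5 and AL and CR mice at 15 months. Gria4 went from 4.65% ± 0.51 (SD, n = 5) to 12.8% ± 2.84 (SD, n = 6) in AL mice, and was 5.35% ± 0.74 (SD, n = 5) and 8.45% ± 4.07 (SD, n = 6) in CR mice. Gria3 averaged 12.9% and 13.3% at 5 months and 19.1% and 15.6% at 15 months in AL and CR mice, respectively. The pool itself was 481 and 468 FPKM at 5 months and 321 and 383 FPKM at 15 months. The ratio of Gria1 to Gria2 was 0.96 to 1.18 in AL mice at 5 months and 0.43 to 0.97 at 15 months, and 1.10 to 1.27 and 0.64 to 1.20 in CR mice. In the bars of the 15-month AL mice Gria1 is thus narrower than Gria2 in all 6, and in 3 of 6 CR mice of that age.

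**Figure D5:**
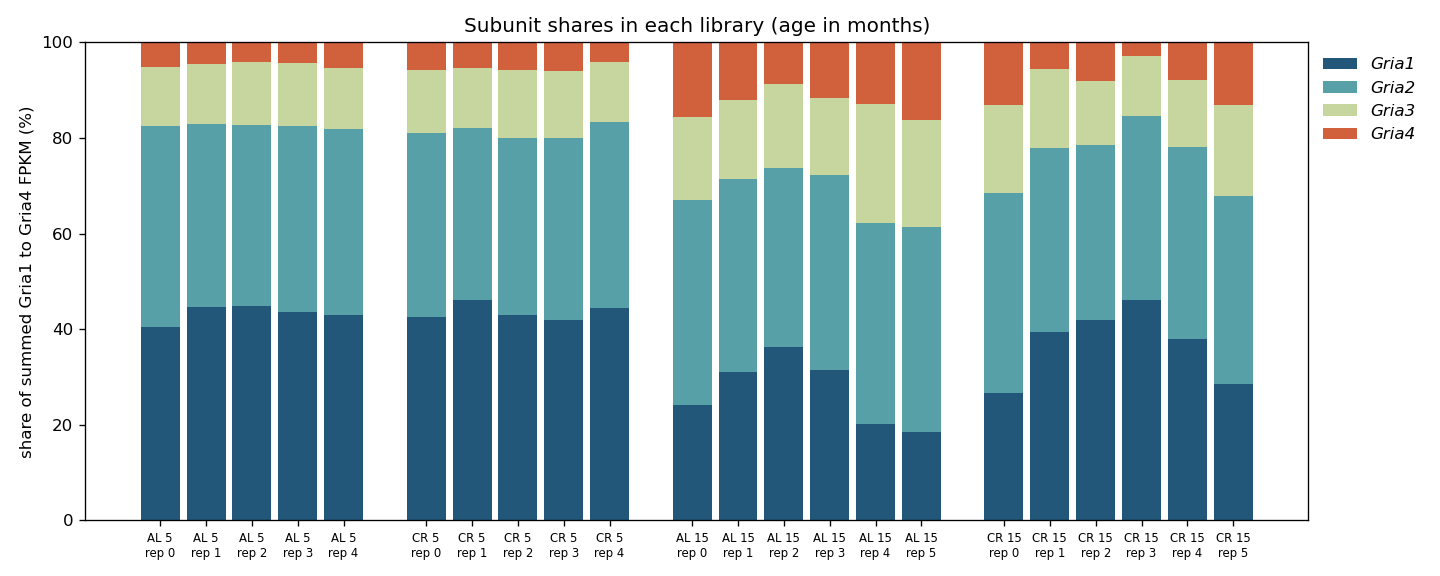
Share of the summed Gria1 to Gria4 FPKM (vertical axis, percent) held by each subunit gene in each of the 22 libraries. Gria1 holds 18.5% to 36.3% in AL mice at 15 months against 40.45% to 44.8% in AL mice at 5 months. Gria4 holds more in AL mice at 15 months (8.63% to 16.3%) than at 5 months (4.19% to 5.26%). In CR mice its ranges overlap, at 2.92% to 13.1% and 4.10% to 5.94%.

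Among the 3 TARPs that are members the summed level was nearly flat, at 139, 129, 126.5 and 134 FPKM on average in AL and CR mice at 5 months and AL and CR mice at 15 months. Cacng7, a gene of the same family outside the members, averaged 88.4, 83.4, 97.95 and 95.05 FPKM in these groups. The shares given here are thus of the 3 members and not of all TARP transcripts. The share of Cacng8 in the sum of the 3 was 59.9% ± 2.56 (SD, n = 5) in AL mice at 5 and 29.7% ± 6.84 (SD, n = 6) at 15 months, while Cacng3 held 29.7% ± 2.22 (SD, n = 5) and 57.3% ± 5.57 (SD, n = 6). Cacng3 exceeded Cacng8 in none of the 10 libraries at 5 months and in all 6 AL libraries at 15 months. In CR mice at 15 months the shares were 43.1% ± 9.52 for Cacng8 and 45.15% ± 7.89 for Cacng3 (SD, n = 6 each). Cnih2 held 89.4% of the sum of Cnih2 and Cnih3 in AL mice at 5 months and 78.35% at 15 months, and 88.5% and 85.5% in CR mice. Cnih1, outside the members and this sum, averaged 48.8 and 45.1 FPKM in AL mice and 48.4 and 47.7 FPKM in CR mice.

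Other proteins of the AMPA receptor complex and its handling were taken as a list of 38 genes, of which 37 were found and tested. Of these, 11 were called for age in AL mice, 5 higher and 6 lower, with a median log2 fold change of -0.19 over the list. That is 29.7% of the list, beside 20.6% of all genes called, 10.7% higher and 9.97% lower in this contrast. Gsg1l, an auxiliary subunit that dampens receptor currents, rose most, from 6.47 to 10.7 FPKM at 5 months to 23.5 to 42.1 FPKM at 15 months (log2 fold change 1.87, SE 0.21, limma adjusted p = 4.44e-05). Grip2, a scaffold that binds the tails of GluA2 and GluA3, rose by 0.94 (limma adjusted p = 0.0029), and Dlg1, the scaffold SAP97 that binds GluA1, by 0.74 (0.000831). Shisa6, an auxiliary subunit of the same family as Shisa9, fell most, from 28.4 to 37.9 FPKM at 5 months to 2.83 to 12.65 FPKM at 15 months (log2 fold change -2.26, SE 0.43, limma adjusted p = 0.00136). Shisa6 and Shisa9 thus differed in opposite directions with age in AL mice. Lrrtm1, a postsynaptic adhesion protein, was at -0.64 (limma adjusted p = 0.00172) and Frrs1l, which assembles receptors in the endoplasmic reticulum, at -0.62 (0.00163). The remaining calls, named after their values were seen, were Vwc2 (0.57) and the RNA editing enzyme Adar (0.38) among those that rose, and the scaffold Dlg3 (-0.40), Porcn (-0.33) and Cpt1c (-0.23) among those that fell. By role, the calls were 3 of 13 other auxiliary and complex proteins, 3 of 5 assembly factors (all lower), 3 of 11 anchoring and trafficking proteins, 1 of 5 extracellular clustering proteins and 1 of 3 editing enzymes. Adarb1, the enzyme that edits the Gria2 transcript, was not among them (0.22, limma adjusted p = 0.147).

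In CR mice 2 of the 37 genes (5.41%) rose with age, where 3.36% of all genes were called and 1.10% were higher. They were Gsg1l (1.54, SE 0.21, limma adjusted p = 0.000308) and Dlg1 (0.56, SE 0.13, limma adjusted p = 0.0178). Between diets at 15 months 1 of the 37 genes (2.70%) was called, beside 0.742% of all genes. It was Lrrtm1, which was higher in CR mice, at 40.6 to 61.5 FPKM against 23.35 to 43.1 FPKM in AL mice (0.51, SE 0.12, limma adjusted p = 0.0483). That call was lost in 20 of the 22 fits without 1 library, all except those without CR 15 months replicate 0 or 5. At 5 months limma called 0 of the 37 between diets (1 at an unadjusted p under 0.05), and for the interaction 0 (6 at that p). With the region score as a covariate 0 of the 37 were called for age in AL mice and 1 in CR mice.

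The genes whose log2 levels were most like those of each subunit over the 22 libraries, among 8034 genes with a mean of at least 10 FPKM, are given as a description, since the libraries share their groups and the region score. For Gria1 they were Lrrn2 (Pearson r = 0.98), Wscd2 (0.97) and Pkp2 (0.97), with r of 0.96, 0.93 and 0.935 after group means were removed. Lrrn2 had 75.75 to 90.5 FPKM in AL mice at 5 months and 27.75 to 56.8 FPKM at 15 months, and 76.75 to 102.8 and 35.3 to 85.2 FPKM in CR mice. For Gria2 they included Arl15 (r = 0.94) and Sema3e (0.93), a secreted semaphorin. For Gria3 they were Ppp1r9a (r = 0.86), Drp2 (0.85) and Slitrk1 (0.85), and none of these 3 genes was called in a contrast. For Gria4 they were Fgf12 (r = 0.96), a regulator of sodium channels, Dpp10 (0.95), a partner of potassium channels, and Klf6 (0.95), a transcription factor. Fgf12 had 25.0 to 30.9 FPKM in AL mice at 5 months and 37.85 to 67.1 FPKM at 15 months. It spread from 19.8 to 50.3 FPKM in CR mice at 15 months, a range that like that of Gria4 reached below its AL mice at 5 months.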

How the data were processed

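Hippocampal CA1 mRNA libraries from 22 mice in 4 groups were analysed from the FPKM values the authors deposited, with groups and replicate numbers from the sample labels. The authors prepared the libraries with the TruSeq RNA kit, sequenced them paired-end on an Illumina HiSeq, demultiplexed with bcl2fastq, aligned with TopHat to mm10, marked duplicates with Picard and estimated FPKM with Cufflinks, which corrects for fragment bias and shares reads among the places they map to. Versions and the annotation release are not given in the sources used here. FPKM is relative to each library's total, so a few abundant transcripts can move all other values, and estimates for similar subunits depend on how reads were shared. Whole reads could not be recovered, since at most 2.03% of low values lay on a common ratio (within 0.005). The authors report an average depth per sample, but the depth of each library is unknown here. Every mouse gave 1 library, so p-values reflect the spread between mice, taken as 1 estimate per gene shared by the 4 groups. The groups differed in spread, as in Gria1 of CR mice (SD 13.6 FPKM at 5 and 56.1 FPKM at 15 months). Separate fits put 1469 genes at an unadjusted limma p under 0.05 between diets at 5 months, against 789 in the shared fit. At 15 months the numbers were 2003 and 2902. The labels used here name no batch.

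The 16978 of 23361 genes whose FPKM averaged 0.1 or more were tested as log2(FPKM + 0.1) with limma 3.58.1 in R 4.3.3 (a means model of the 4 groups, eBayes with an intensity trend, two-sided, Benjamini-Hochberg over all genes). The steps were tested on simulated data. Tables and figures used Python 3.11.15, pandas 2.3.3, numpy 2.4.6 and matplotlib 3.10.9. Gene coordinates are from GENCODE M21 on GRCm38, the build also called mm10. Cnih1 and Epb41l1 were found under older symbols, and Shisa8 was not found in the matrix. Named are all 10 members, partner genes called (the 3 largest changes each way where more than 10 were called) and the 3 genes most like each Gria gene, of which 1 is not reported here. The members, the 38 partner genes, the 12 marker lists and the tests were chosen with earlier results of these data known. The alternatives were pseudocounts of 1 and 0.01, no filter or a mean of at least 1 FPKM, a common median, quantile normalization, eBayes without trend, separate fits, a replicate block, the region score as a covariate and each library left out. The CA1 list level, or the region score with the dentate list, as covariates, and the omission of AL 15 months replicates 4 and 5 were added after seeing the data.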

Additional observations from a re-analysis of the deposited data

Results flagged for a closer look

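In 3 of 40 sets of values (10 genes in 4 groups) 1 mouse lay apart from the rest of its group by Dixon's test at the 95% level, where chance gives about 1 set in 20. Gria2 was 184.6 FPKM in CR 5 months replicate 4, and the other 4 mice of that group lay between 173.2 and 176.0 FPKM. Gria4 was 19.5 FPKM in the same mouse, below the 25.8 to 27.2 FPKM of the others. Cnih3 was 58.7 FPKM in CR 15 months replicate 0, where the other 5 mice had 31.2 to 39.1 FPKM. None of the calls of Gria2, Gria4 and Cnih3 changed when any 1 library was left out.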

How the results depend on the processing

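For age in AL mice, 7 members were called under every alternative except the region score (0), the region score with the dentate list (0) and the CA1 list level (5), and in each of the 22 fits without 1 library. Partner genes called were 11 there, 10 to 13 without 1 library, 17 in separate fits of the groups compared and 0 with the region score, alone or with the dentate list. For age in CR mice, 1 member was called, 0 with the region score, alone or with the dentate list, and 1 to 3 without 1 library (3 without CR 15 months replicate 3). Partner genes called were 2, then 1 to 3 without 1 library (1 without CR 5 months replicate 4), 1 in separate fits, 1 with the region score and 0 with the dentate list added. For CR against AL at 15 months, 0 members were called, and 0 to 3 without 1 library (1 without CR 15 months replicate 0 and 3 without replicate 5). Partner genes called were 1, then 0 to 2 without 1 library (2 without CR 15 months replicate 0, 1 without replicate 5 and 0 without any other), and 0 with a pseudocount of 0.01, no filter, quantile normalization, eBayes without trend, separate fits, each covariate, or AL 15 months replicates 4 and 5 omitted. A separate fit gives no interaction and was not run for it. In that diet contrast all genes called numbered 126, 323 with the replicate block and 0 in separate fits (2003 at an unadjusted p under 0.05). The cause of these shifts was not tested.

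The labels used here do not say whether a replicate number pairs mice across groups. In 31 pairs that share a number, deviations from group means correlated between -0.139 and 0.163, above 0.1 in 2. Low correlations over all genes cannot show that no effect is shared by mice with the same number, and this was not tested further. With the replicate number as a block, 2 members were called at 15 months between diets, Gria1 (0.69, limma adjusted p = 0.04105) and Cnih2 (0.71, limma adjusted p = 0.0253), and no other member's call changed.

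The log2 fold changes that changed sign were of members not called in the reported fit, except Gria4 for age in AL mice, which lost its call. With the region score as a covariate they were for age in AL mice Gria3 (0.090) and Cacng2 (-0.18), for age in CR mice Gria1 (0.13), Gria4 (-0.47), Cacng2 (-0.11), Cacng8 (0.047) and Cnih2 (0.21), for diet at 15 months Cacng2 (0.026), for diet at 5 months Gria3 (-0.0099), and for the interaction Cacng2 (0.070) and Cacng3 (0.0099). With the dentate list level added to the region score they were for age in AL mice Gria3 (0.055), Gria4 (-0.021) and Cacng2 (-0.18), for age in CR mice Gria1 (0.0385), Gria3 (0.12), Gria4 (-0.30), Cacng2 (-0.10), Cacng8 (0.0105) and Cnih2 (0.14), for diet at 15 months Cacng2 (0.031), for diet at 5 months Gria3 (-0.087), and for the interaction Gria3 (0.068), Cacng2 (0.080) and Cacng3 (0.13). With the CA1 list level as a covariate they were for age in AL mice Cacng2 (-0.015) and Cnih3 (0.049) and for the interaction Cacng2 (0.0635). With AL 15 months replicates 4 and 5 omitted they were for diet at 15 months Gria3 (0.14) and Shisa9 (-0.0375) and for the interaction Gria3 (0.13), Cacng2 (0.078) and Cacng3 (0.091). With a common median they were for diet at 5 months Gria3 (-0.0050) and for the interaction Cacng2 (0.032) and Cacng3 (0.024). With quantile normalization they were for age in AL mice Gria3 (0.021), for diet at 15 months Shisa9 (-0.0071), and for the interaction Cacng2 (0.0041). Without 1 library, values whose sign changed ran as follows. For age in AL mice Gria3 ran from -0.14 to 0.0425 and Cnih3 from -0.12 to 0.011. For diet at 15 months Gria3 ran from -0.14 to 0.042 and Shisa9 from -0.11 to 0.11. For diet at 5 months Gria1 ran from -0.083 to 0.038, Gria3 from -0.038 to 0.070, Cacng8 from -0.0835 to 0.044, Cnih2 from -0.099 to 0.043 and Cnih3 from -0.0195 to 0.15. For the interaction Gria3 ran from -0.15 to 0.032, Cacng2 from -0.086 to 0.054 and Cacng3 from -0.11 to 0.081. Without read counts no counting error can be given, so the spread between mice alone limits these values.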
